A study of Mus musculus with 2 samples.

Results

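The genes described here follow the route of sugar carbon from glucose uptake through glycolysis to lactate export and to the entry of pyruvate into the mitochondrion. They are a list of 36 gene symbols, and the members on the array were all probe sets whose single platform gene symbol is on that list. On the array, 73 probe sets matched 33 of the 36 genes, out of 18194 genes with a probe set of their own. Gpi1, Pfkfb1 and Eno1 had no such probe set here and were not analysed. Mlesico and Mle29c are mouse epithelial lines, and the RNA of each was measured on a single oligonucleotide array. Both lines were grown in DMEM with fetal bovine serum, and no treatment is recorded for either. The series concerns miR-29c and lung fibrosis, but the labels give no genotype and do not say what was done to miR-29c in either line, nor whether a line is 1 clone.

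Values are given as the log2 ratio between the lines, Mle29c minus Mlesico, so that 1 means a signal 2-fold higher in Mle29c and -1 a signal 2-fold lower. The deposited values had been centred on the midpoint of both arrays, and a probe set's 2 values mirror each other: Slc16a3, for example, is listed at 1.85 in Mlesico and -1.85 in Mle29c. The ratio thus carries all of the deposited information except a trace of the signal level, which was read from the rounding of the numbers. A probe set was placed in the high class where its mean log2 level was shown to be 8 or more. It was placed in the middle class where the level was taken to be 4 or more without being shown to reach 8. The low class held those not shown to reach 4, which may include some that do. A gene was called measured when it had a high or middle probe set, and its value is the median over those probe sets. This left 32 members. The only probe set of Pgam2, the muscle phosphoglycerate mutase, was in the low class, with a ratio of 0.26. Each line has 1 array, so the lines could not be tested against each other and no difference below has a replicate check. The only error that can be stated is technical: the pooled SD of the log2 ratio among the measured probe sets of the same gene was 0.62 over 6895 genes, which leaves out any difference between cultures. The RNA came from whole cultures, in which fewer cells of a type and less RNA per cell cannot be told apart.

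Glycolysis splits glucose into pyruvate and yields ATP without oxygen. Most steps can be run by several isoenzymes, encoded by separate genes that differ in kinetics, tissue and regulation. Pyruvate is then either reduced to lactate and exported with a proton, or oxidised to acetyl-CoA by the pyruvate dehydrogenase complex, which the Pdk kinases switch off, or carboxylated to oxaloacetate. In the alveolar epithelium glucose also feeds the lipids of surfactant, and many glycolytic genes are classical targets of the hypoxia-inducible factors.

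Most of the glycolytic chain was modestly higher in the Mle29c array, while single isoenzymes stood out in both directions. Of the 32 measured members, 7 were at least 2-fold higher in Mle29c, against 8.41% of all 14820 measured genes, and 2 were at least 2-fold lower, against 7.19%. The higher members were Aldoc, Pfkp, Eno2, Ldhb, Pdk1, Hk2 and Slc16a1, and the lower ones Slc16a3 and Pdk4. The other 23 were within 2-fold, where 84.4% of all genes were. In all, 23 of 32 had a ratio above 0, or 71.9%, against 50.4% of all genes. The members' median was 0.38, with quartiles at -0.07 and 0.78, and the median of all genes was 0.01. At 4-fold, no member was higher, where 2.67% of all genes were, and Slc16a3 alone was lower, where 2.31% were. The counts were also taken against other references. Set against Gapdh, itself a member at 0.35, the median of all genes moves by that amount and 3 members were higher, where 5.15% of all genes were, and 3 lower, where 13.2% were. Set against each gene's 40 nearest measured genes on its chromosome, 4 were higher and 2 lower, where 7.86% and 7.21% of all genes were.

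**Figure D1:**
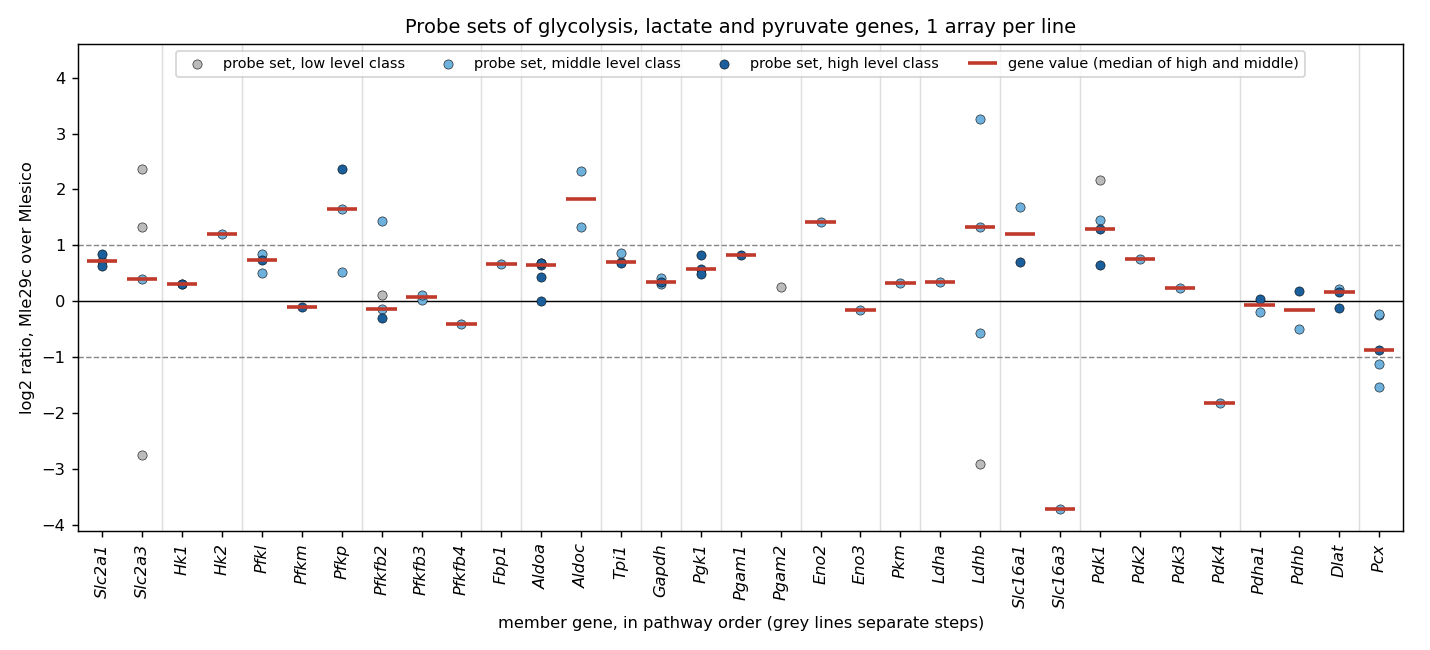
Log2 ratio of Mle29c over Mlesico (y axis) for each of the 73 probe sets of the 33 matched genes in pathway order (x axis). Points are probe sets coloured by level class, red bars are gene values, and dashed lines mark 2-fold. Most bars from Slc2a1 to Ldha lie between 0 and 1, with Slc16a3 at -3.70 and Pdk4 at -1.82 far below.

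Bright probe sets were looked at separately. Aldoc, Eno2, Hk2, Ldhb, Slc16a3 and Pdk4, 6 of the 9 members past 2-fold, have none in the high class. A probe set whose values on both arrays sum to exactly 0 cannot be placed in the high class, whatever its level. The only probe sets of Hk2, Eno2 and Pdk4 are of this kind, so they need not be dim. Members were bright more often than other genes: 35.6% of their probe sets were in the high class, against 17.8% of all 34958 probe sets with 1 gene. Of the 26 high-class probe sets of members, 22 had a ratio above 0, against 48.4% of all high-class probe sets. Their median was 0.60, beside -0.02 for all 6239. Past 2-fold were 2 of them, both higher: a probe set of Pfkp at 2.37 and one of Pdk1 at 1.29. In this class 2.92% of all probe sets were at least 2-fold higher and 2.48% lower. Among the 18 members with 2 or more measured probe sets, the measured probe sets shared one sign in 13, or 72.2%, against 56.2% of all such genes. The median distance between a gene's highest and lowest probe set was 0.514 for these members and 0.515 for all such genes.

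**Figure D2:**
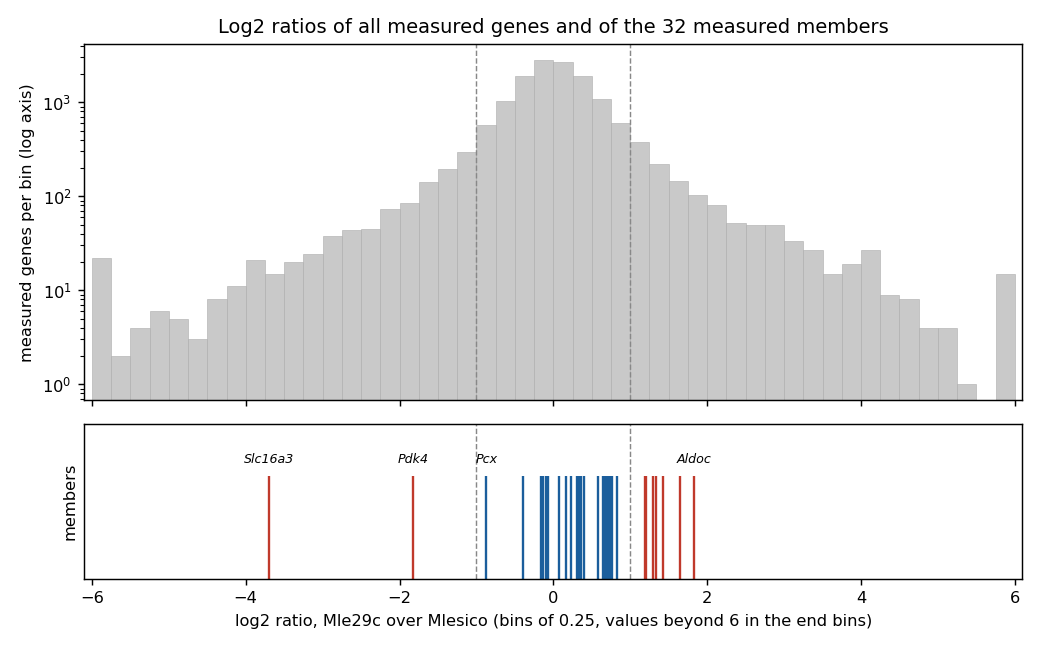
Upper panel, number of measured genes per bin of 0.25 in log2 ratio, on a log axis. Lower panel, the 32 measured members, with those past 2-fold (dashed lines) in red. The members pile up between 0 and 1, and Slc16a3 at -3.70 is lower than all but 0.574% of genes.

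The promoters of the genes that stood out are shown here because they are where hypoxia-inducible factors and E-box factors are known to bind glycolytic genes. They are the 250 bases before the first listed start site in RefSeq (build GRCm38.p6), written 5′ to 3′ on the gene's strand. Aldoc lies at chr11:78322823-78323072 (plus strand), Pfkp at chr13:6648772-6649021 (minus strand), Slc16a1 at chr3:104638414-104638663 (plus strand), Slc16a3 at chr11:120948817-120949066 (plus strand), Pdk1 at chr2:71872974-71873223 (plus strand) and Pdk4 at chr6:5496279-5496528 (minus strand). Capitals mark the words ACGTG and GCGTG, the cores of the hypoxia response element, on either strand (read as CACGT and CACGC on the other one). They are the 2 members with the highest ratios and the members with the highest and lowest ratio among lactate transporters and Pdk kinases.
Aldoc: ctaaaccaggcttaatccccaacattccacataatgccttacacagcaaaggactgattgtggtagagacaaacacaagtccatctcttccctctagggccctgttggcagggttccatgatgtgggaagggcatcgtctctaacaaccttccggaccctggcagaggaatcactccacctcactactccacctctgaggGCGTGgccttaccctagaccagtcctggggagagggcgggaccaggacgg
Pfkp: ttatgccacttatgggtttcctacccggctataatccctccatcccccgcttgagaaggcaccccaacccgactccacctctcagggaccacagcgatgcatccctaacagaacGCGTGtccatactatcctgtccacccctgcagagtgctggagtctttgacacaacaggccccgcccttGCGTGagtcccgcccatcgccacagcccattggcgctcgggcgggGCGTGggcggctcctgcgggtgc
Slc16a1: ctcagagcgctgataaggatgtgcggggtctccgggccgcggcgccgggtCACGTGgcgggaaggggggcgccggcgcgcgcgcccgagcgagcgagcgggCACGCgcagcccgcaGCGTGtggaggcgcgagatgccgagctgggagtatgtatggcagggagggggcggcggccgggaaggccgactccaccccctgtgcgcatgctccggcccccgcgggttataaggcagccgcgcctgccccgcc
Slc16a3: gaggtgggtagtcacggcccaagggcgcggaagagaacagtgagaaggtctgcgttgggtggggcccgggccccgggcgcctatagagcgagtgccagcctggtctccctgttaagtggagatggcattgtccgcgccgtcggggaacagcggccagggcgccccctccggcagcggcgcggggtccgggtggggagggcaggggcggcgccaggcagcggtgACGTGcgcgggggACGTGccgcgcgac
Pdk1: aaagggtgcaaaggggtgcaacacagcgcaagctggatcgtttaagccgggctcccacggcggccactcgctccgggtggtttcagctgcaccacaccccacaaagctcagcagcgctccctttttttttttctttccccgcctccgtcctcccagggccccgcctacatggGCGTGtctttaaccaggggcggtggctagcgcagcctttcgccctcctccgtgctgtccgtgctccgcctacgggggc
Pdk4: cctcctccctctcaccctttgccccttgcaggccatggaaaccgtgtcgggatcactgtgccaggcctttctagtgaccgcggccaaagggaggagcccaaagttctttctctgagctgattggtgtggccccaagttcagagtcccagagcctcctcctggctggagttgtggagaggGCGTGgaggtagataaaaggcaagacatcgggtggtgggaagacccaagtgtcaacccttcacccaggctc

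Such words were common in the promoters of members whatever their ratio. ACGTG or GCGTG stood in 25 of the 35 member promoters found in the table, or 71.4%, against 38.6% of all 27025 promoters of the same length and 52.8% of the 11874 of measured genes. By direction, 6 of the 7 higher members, both of the lower ones and 16 of the 22 within 2-fold with a promoter held one. The full E-box CACGTG, which contains ACGTG, stood in 6 of 35, or 17.1%, against 6.05% of all and 7.90% of measured genes. Pfkp held 3 words, Slc16a1 4, Slc16a3 2, and Aldoc, Pdk1 and Pdk4 1 each, while Eno2 held none in this window. Ldha, whose ratio was 0.35, held 5. Both strands were counted, so that a palindromic CACGTG counts on each. A word is a match of letters and not a shown binding site.

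Glucose enters through Slc2a1 and Slc2a3, the basal and the high-affinity glucose transporter. Slc2a1 had ratios of 0.63, 0.73 and 0.85 in its 3 probe sets, all of the same sign and close together. Slc2a3 could hardly be measured: its middle-class probe set was at 0.40, while its 3 low-class probe sets stood at 2.36, 1.34 and -2.74, on both sides of 0. The hexokinases trap glucose in the cell as glucose 6-phosphate. Hk1, the broadly expressed form, stood at 0.31, or 1.24-fold, with probe sets at 0.31 and 0.32. Hk2, the inducible form, stood at 1.21 from 1 probe set, or 2.31-fold. The gap of 0.89 between them is near the SD of 0.87 that a difference of 2 single probe sets would have from the spread between probe sets alone. Hk1 rests on 2 probe sets, so the SD that applies to this gap would be somewhat smaller.

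Phosphofructokinase commits sugar to glycolysis, and its 3 genes differed in order. Pfkp, the platelet form, was highest at 1.64, or 3.12-fold, with probe sets at 2.37, 1.64 and 0.52. Pfkl, the liver form, stood at 0.74 with all 3 probe sets between 0.50 and 0.86. Pfkm, the muscle form, stood at -0.10 from 1 high-class probe set. Probe sets of Pfkp and Pfkl overlapped, whereas both lay above Pfkm without overlap. The Pfkfb enzymes set the level of fructose 2,6-bisphosphate, the strongest activator of phosphofructokinase, and none of them was past 2-fold. Pfkfb3 stood at 0.07, Pfkfb2 at -0.13 and Pfkfb4 at -0.40. The probe sets of Pfkfb2 ranged from -0.29 in the high class to 1.44 in the middle class. Fbp1, the gluconeogenic phosphatase that runs the reverse step, stood at 0.67 from 1 probe set.

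In the aldolase step Aldoc had the higher ratio. Aldoa, the main form outside liver and brain, stood at 0.64, with 4 of 5 high-class probe sets between 0.44 and 0.68 and the fifth at 0.01. Aldoc, the brain form, stood at 1.83, or 3.56-fold, with probe sets at 2.33 and 1.34, both above all 5 of Aldoa. The steps that follow have 1 main enzyme each, and there the ratios lay close together. Tpi1, triose phosphate isomerase, stood at 0.70 in 3 probe sets between 0.68 and 0.87. Gapdh, which makes the first NADH of the pathway, stood at 0.35. Its 3 probe sets, placed by the manufacturer at the 3′ end, middle and 5′ end of the transcript as a labelling control, gave 0.42, 0.31 and 0.35. Pgk1, the first ATP-forming enzyme, stood at 0.57 with 3 high-class probe sets between 0.48 and 0.83. Pgam1, the broadly expressed phosphoglycerate mutase, stood at 0.83 from 1 high-class probe set. Pkm, which makes pyruvate, stood at 0.33, and its splice forms were not analysed separately. Of the enolases, Eno2, the neuronal form, stood at 1.43, or 2.69-fold, and Eno3, the muscle form, at -0.15, each from 1 probe set.

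**Figure D3:**
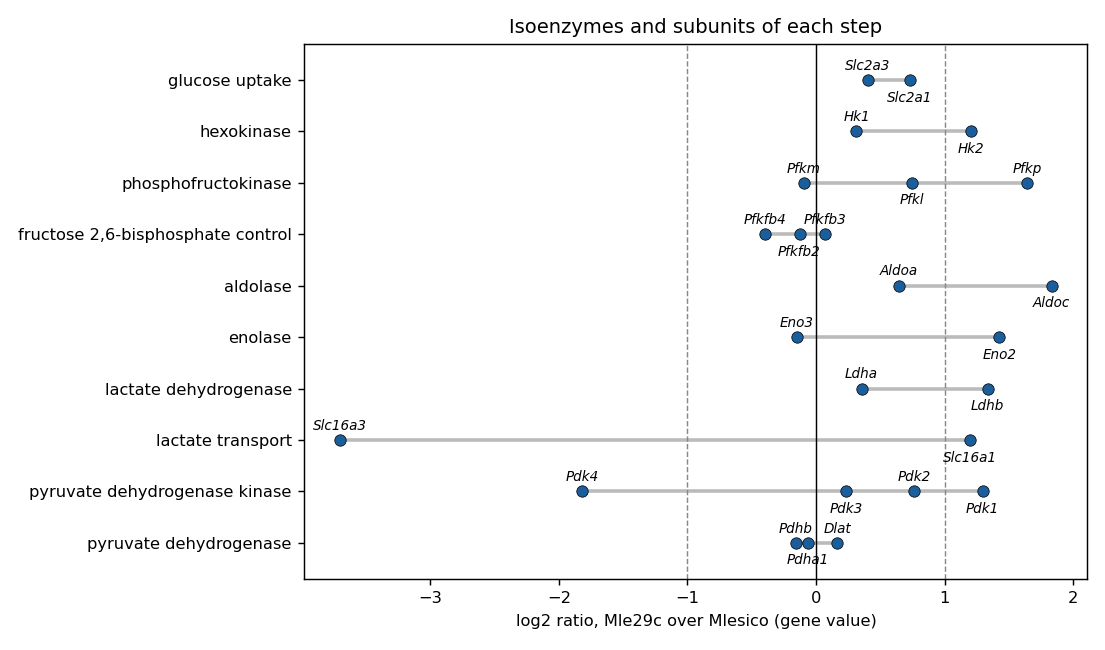
Gene values (log2 ratio of Mle29c over Mlesico, x axis) of the isoenzymes or subunits of 10 steps (y axis); grey lines join the lowest and the highest, and dashed lines mark 2-fold. The spread is widest for lactate transport, from -3.70 to 1.20, and narrowest for the pyruvate dehydrogenase subunits, from -0.16 to 0.16.

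Lactate dehydrogenase interconverts pyruvate and lactate. Ldha, the subunit of glycolytic tissue, stood at 0.35, or 1.28-fold, from 1 probe set. Ldhb, the heart subunit, had probe sets of opposite sign. Its measured ones stood at 3.27, 1.33 and -0.56 and its low-class one at -2.90, so that the gene value of 1.33 is 0.39 with every probe set kept and also with the class taken from the sum of both values alone. Of the lactate transporters, which carry lactate and a proton together, Slc16a1 (MCT1) stood at 1.20, or 2.29-fold, with 0.70 in a high-class and 1.69 in a middle-class probe set. Slc16a3 (MCT4), the exporter of strongly glycolytic cells, stood at -3.70 and was thus 13-fold lower in Mle29c, from 1 middle-class probe set. The class rests on the mean of both arrays, so the signal of Slc16a3 in Mle29c alone may lie below a log2 level of 4 and the size of this fold is uncertain. Their difference of 4.90 was the widest of the 21 pairs of isoenzymes or subunits compared. Bsg, the chaperone both transporters need at the membrane, and named after its value was seen, stood at 0.38.

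The Pdk kinases, which phosphorylate and silence pyruvate dehydrogenase, spread in both directions too. Pdk1, the form induced in hypoxia, stood at 1.29, or 2.45-fold, with measured probe sets at 0.65, 1.29 and 1.46 and a low-class one at 2.18. Pdk2 stood at 0.76 and Pdk3 at 0.23, each from 1 probe set. Pdk4, the form induced by fasting and fatty acids, stood at -1.82 and was thus 3.53-fold lower, also from 1 probe set. Pdk4 differed from Pdk1 by 3.11, from Pdk2 by 2.58 and from Pdk3 by 2.05. All subunits of the enzyme that the kinases act on were within 2-fold. They stood at -0.07 for Pdha1, -0.16 for Pdhb and 0.16 for Dlat, and their probe sets overlapped. Pcx, pyruvate carboxylase, which refills the citric acid cycle and starts gluconeogenesis, was on the lower side at -0.87. All 5 of its probe sets were below 0, from -1.53 to -0.22, and 4 of the 5 are control probe sets of the manufacturer. Without those, its remaining probe set was at -1.12, past 2-fold.

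Over all 10 steps with several measured genes, 8 of 21 pairs differed by 1 or more on the log2 scale, and in 14 of the 21 the probe sets of both genes did not overlap. All 8 are among these 14, but Eno2 with Eno3, and Pdk2 and Pdk3 with Pdk4, had 1 probe set per gene and could not overlap. The 8 pairs were Pfkp over Pfkm, Aldoc over Aldoa, Eno2 over Eno3, Slc16a1 over Slc16a3, Pdk1 over Pdk3, and each of Pdk1, Pdk2 and Pdk3 over Pdk4. In 5 of the 8 at least one gene value was beyond 2-fold in size and rests on a single probe set: Eno2, Slc16a3 or Pdk4. The values of Pfkp, Aldoc, Slc16a1 and Pdk1 rest on 2 or 3 measured probe sets each. The same shares were not taken over other pairs of genes, so whether 8 and 14 of 21 are unusual cannot be said. From the spread between probe sets alone, a difference of 2 single probe sets has an SD of 0.87.

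Members were also compared with their neighbours on the chromosome. Of the 32 measured members 7 lie on chromosome 6, which holds 773 of the 14820 measured genes and whose median was 0.32. They were Slc2a3, Hk2, Tpi1, Gapdh, Eno2, Ldhb and Pdk4, with a median of 0.70, and the 25 members elsewhere had a median of 0.33. Tpi1, Gapdh and Eno2 lie close together there. The 40 measured genes nearest to each of them had medians of 0.46, 0.48 and 0.44. Relative to these neighbours Tpi1 stood at 0.24, Gapdh at -0.13 and Eno2 at 0.99. Pgam1, on chromosome 19, had the neighbourhood with the highest median, 0.60, and stood 0.23 above it. Hk2 was 0.84 and Ldhb 0.93 above their neighbours, so Hk2, Eno2 and Ldhb were no longer past 2-fold. On chromosome 11, whose median was -0.25, Aldoc was 2.18 above its neighbours and Slc16a3 stood at -3.49 relative to them. Pfkp (1.88), Pdk1 (1.58) and Slc16a1 (1.34) also lay further above their neighbours than above 0, and Pdk4 stood at -2.10 relative to them. Against neighbours, 4 members were at least 2-fold higher, where 7.86% of all genes were, and 2 were lower, where 7.21% were. The members' median was then 0.27, with 23 of 32 above 0, or 71.9%, against 49.7% of all genes. The part of chromosome dosage in these ratios was not tested.

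**Figure D4:**
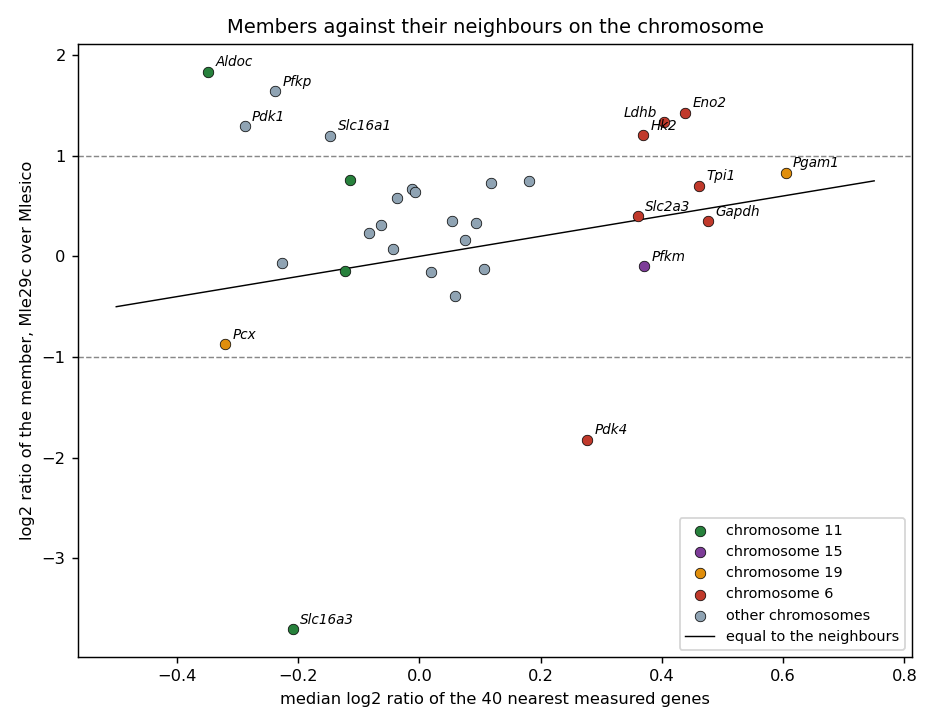
Log2 ratio of each of the 32 measured members (y axis) against the median log2 ratio of its 40 nearest measured genes (x axis), coloured by chromosome. On the black line a member equals its neighbours. The chromosome 6 members sit at neighbour medians between 0.28 and 0.48, and Aldoc, Pfkp, Pdk1 and Slc16a1 are above 1 with neighbour medians below 0.

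The genes around the pathway differed from list to list. Of 113 genes in 7 lists of neighbouring sugar metabolism, 96 were measured, with a median of 0.08. At least 2-fold higher were 7, or 7.29%, against 8.41% of all genes. On the lower side were 5, or 5.21%, against 7.19%. The lists together were thus past 2-fold no more often than all genes, and each list is short. Among 11 further carriers and sugar kinases 1 was higher, or 9.09%, and 2 were lower, or 18.2% (median -0.04). The fructose kinase gene Khk stood at 1.39, the hexokinase-like gene Hkdc1 at -1.20 (probe sets at -1.97 and -0.42) and the urate and sugar transporter gene Slc2a9 at -1.01. Other isoenzymes and side branches had 3 of 18 higher, or 16.7%, and none lower, with a median of 0.31. In this list 15 of 18 were above 0, or 83.3%, against 50.4% of all genes. Their share above 0 was thus no lower than that of the members. Gapdhs, the sperm form of Gapdh, stood at 2.75 and the glucose 6-phosphatase gene G6pc3 at 1.96, each from 1 probe set. All 10 other measured genes of pyruvate and lactate handling were within 2-fold (median 0.16), where 84.4% of all genes were. They ranged from Pdp1, a phosphatase that reactivates pyruvate dehydrogenase, at -0.39 to the alanine transaminase gene Gpt at 0.89.

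In the pentose phosphate pathway, which draws glucose 6-phosphate off for NADPH and ribose, 7 of 9 genes were below 0 (median -0.11). Of the 9, 22.2% were above 0, against 50.4% of all genes. Tkt, the transketolase gene, was the only one past 2-fold, at -1.32 with its 3 probe sets between -1.56 and -1.24. Glycogen genes had 1 of 12 higher and 1 lower, or 8.33% each (median 0.32), where 8.41% and 7.19% of all genes were. Ppp1r3c, which targets a phosphatase to glycogen and promotes its synthesis, stood at 6.15 from 1 measured probe set, and Gyg, the primer of glycogen, at -1.09 with probe sets at -1.16 and -1.02. The other probe set of Ppp1r3c was in the low class. Because the class rests on the mean of both arrays, the Ppp1r3c signal in Mlesico alone may lie below a log2 level of 4. The size of its ratio is thus uncertain. In the citric acid cycle all 19 measured genes were within 2-fold, where 84.4% of all genes were. Their median was -0.01, and they ranged from Suclg2 at -0.76 to Sdha at 0.38. Among 17 regulators 2 were higher, or 11.8%, and 1 lower, or 5.88% (median 0.13), where 8.41% and 7.19% of all genes were. Prkaa2, a catalytic subunit of AMP-activated kinase, stood at 3.77 with measured probe sets at 3.37 and 4.17 and 1 more in the low class. The size of the Prkaa2 ratio is uncertain in the same way as that of Ppp1r3c. Mlxipl, the glucose-responsive factor ChREBP, stood at 2.99, and Epas1, which encodes the hypoxia-inducible factor HIF-2 alpha, at -1.37, each from 1 measured probe set. The same limit holds for the Mlxipl ratio and for other wide ratios without a high-class probe set, such as that of Gapdhs. Hif1a and Myc, named after their values were seen as the best known activators of glycolytic genes, stood at 0.13 and 0.18.

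**Figure D5:**
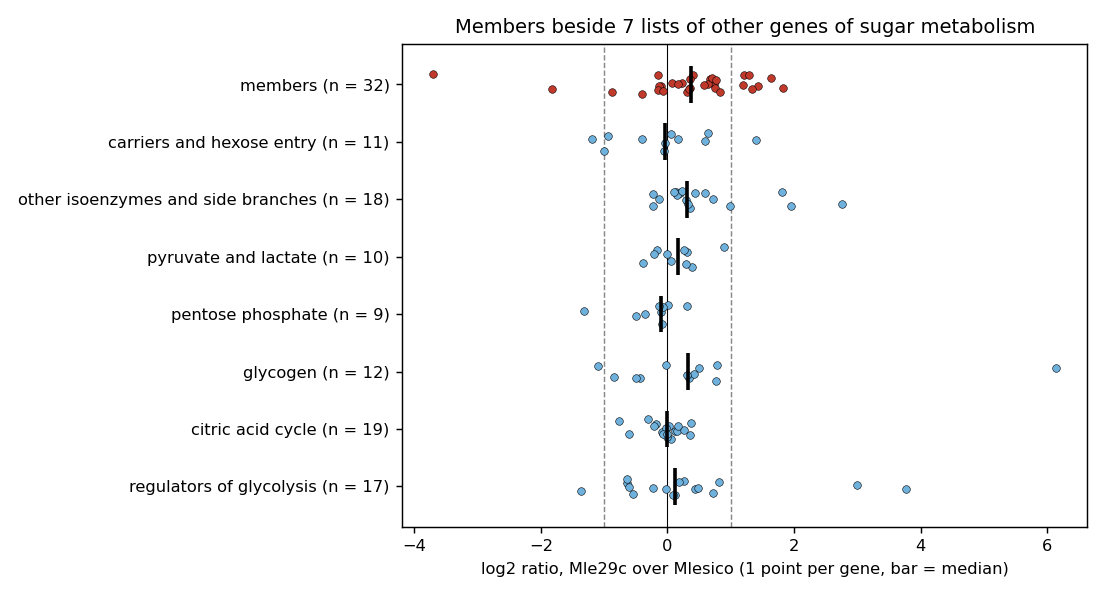
Log2 ratio (x axis) of each measured gene, 1 point per gene, for the members (red) and 7 lists of other genes of sugar metabolism (blue); black bars are medians and dashed lines mark 2-fold. The member median of 0.38 is beside -0.01 for the citric acid cycle and -0.11 for the pentose phosphate pathway.

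The label of epithelial cells was checked against markers, as far as level classes allow. Being measured was common, since 14820 of 18194 genes were. Of 8 epithelial markers 7 were measured, among them Epcam, Krt8, Krt18 and Krt19, but only 1 of the 8 had a high-class probe set. All 5 alveolar type 2 markers were measured, 2 of them with a high-class probe set. Of the 5, 3 were at least 2-fold higher in Mle29c, namely Sftpc (1.66), Sftpb (2.13) and Napsa (2.25), where 8.41% of all genes were. Cdh1, at 1.46, was the only epithelial marker past 2-fold. Probe sets of the leukocyte marker Ptprc and the endothelial marker Pecam1 were all in the low class, as were those of both erythroid markers. The other 2 immune markers were measured, at -0.99 and 0.23, and the other 2 endothelial ones at 0.01 and 0.05. All 5 fibroblast markers were measured as well, from Col1a1 at -3.41 to Col3a1 at 1.55. Being measured thus did not set epithelial cells apart from fibroblasts here. The part of these marker differences in the members' ratios was not tested.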

How the data were processed

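RNA of the mouse lines Mlesico and Mle29c was labelled with biotin and hybridised to 1 array per line, per the labels. The deposited values are on a log2 scale as taken here, since no source states the base; the authors deposited them already centred, since the values of a probe set on both arrays sum to 0 within 1e-06. The submitters' processing notes name MAS5, whose version and settings are not given in the sources used here. Base 10 would put the widest ratio at 2.09e+10-fold, while natural logarithms were tried as an alternative. Weak MAS5 signals vary widely: 58.1% of low-class probe sets with 1 gene differed by 2-fold or more, against 18.2% of middle-class and 5.40% of high-class ones.

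The level class used single-precision steps. Where the sum of a probe set's values was not 0, its size gave a lower bound of the mean level; where it was 0, the step of the values was used, and 123 probe sets printed with too few digits and 161 tied ones were left out. Tested on simulated data of 45101 probe sets, 92.2% of measured calls were truly at 4 or more (100% from the sum, 85.4% from the step). The simulated levels were drawn from the sizes of the sums that were not 0 in these data. The shares thus depend on that mix of levels and are no independent measure of accuracy. Because the sum gives a lower bound, its 100% was fixed in advance. Probe sets were named by the platform annotation of 2016, with 34958 listing 1 gene, 932 several and 9211 none here; 34750 of the 34958 were found by gene number in the GRCm38.p6 gene table, which gave chromosomes and neighbours.

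Counts are of size alone, at 2-fold, since no test was possible with 1 array per line, whose number limits the precision. Calculations used Python 3.11.15, pandas 2.3.3 and numpy 2.4.6. All 36 members are named; of each other pathway list, up to 2 genes past 2-fold per direction, or the highest and lowest where none is; markers were named outside this rule. Members, lists and rules were chosen with earlier results of these data known. Alternatives changed the probe sets kept, the summary, the centring and the fold. Protein sequences were not analysed here.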

Additional observations from a re-analysis of the deposited data

How the results depend on the processing

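The direction of Aldoc, Slc16a3 and Pdk4 and their place past 2-fold held under every alternative that gave them a value (10, 10 and 9). Slc16a3, Pdk4, Eno2 and Hk2 have 1 probe set each. Alternatives that changed only the probe sets kept or the summary could thus only keep or drop their values. The tallies of these genes therefore cannot be ranked against those of genes with several probe sets. Pfkp kept its place in 10 of 11, Slc16a1 in 8 of 11, Pdk1 in 7 of 11, Eno2 in 7 of 8, Hk2 in 6 of 9 and Ldhb in 4 of 9. With each gene's probe set nearest to 0, Ldhb reversed to -0.56. The number of members at least 2-fold higher (7 of 32, beside 8.41% of all genes) was 1 of 17 in the high class alone (all genes 3.09%), 4 of 21 with the class from the sum alone (6.90%), 4 of 24 without probe sets shared between transcripts or genes by design (8.60%), 3 with the probe set nearest to 0 (7.18%), 14 at 1.5-fold (16.6%) and 0 at 4-fold (2.67%). Among settings chosen after the data were seen, it was 4 against the 40 nearest genes (7.86%), 3 relative to Gapdh (5.15%) and 12 with values read as natural logarithms (13.7%). The number of lower members was 2 of 32, beside 7.19% of all genes. In the high class, where neither Slc16a3 nor Pdk4 had a probe set, it was 0 of 17 (all genes 2.48%). It was 1 of 21 with the class from the sum (6.06%) and 1 at 4-fold (2.31%). It was 3 centred on the chromosome median (7.26%), without control probe sets (7.19%) and relative to Gapdh (13.2%). As natural logarithms (12.2%) and at 1.5-fold (15.2%) it was also 3. The median of 0.38 was 0.58 in the high class, 0.028 relative to Gapdh and 0.54 as natural logarithms, and between 0.27 and 0.40 under the other alternatives. Of 317 member values under an alternative 304 moved by less than the SD of 0.62 between probe sets, and of 178 isoenzyme differences 170 moved by less than 0.87. Part of these counts was fixed in advance. The Gapdh setting shifts every member by 0.349, and members with 1 measured probe set keep their value when only the summary changes. The cause of the differences between the lines was not tested. No paired analysis was possible because each line has 1 array.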

Other observations

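Probe sets that list a member together with other genes were left out of every count above. Those that name Gapdh with its pseudogenes had log2 ratios of 0.25 (5 genes listed), 0.63 and 1.05 (2 genes listed each), beside 0.31 to 0.42 in the 3 control probe sets of Gapdh alone. A probe set that names Hk1 with the ribosomal protein gene Rpl17 and its pseudogenes stood at 0.01, beside 0.31 for Hk1.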
